A study of Homo sapiens with 10 samples.

Results

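The ABC transporter family was followed in A375 cells, an established human melanoma line with an activating BRAF mutation, on Affymetrix Clariom S human HT arrays. Members were the probe sets whose gene symbol begins with ABCA, ABCB, ABCC, ABCD, ABCE, ABCF or ABCG and then a digit. The rule used no measured value, but it was chosen with earlier results of these data known. It found 39 probe sets, 1 per gene, among 18569. By subfamily there were 12 ABCA, 8 ABCB, 9 ABCC, 3 ABCD, 1 ABCE, 1 ABCF and 5 ABCG genes. Family genes outside these 39 probe sets were not analysed here, apart from 3 that carry other symbols and are described further on.

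Cells were plated with doxycycline at 2 µg/ml or without it and frozen at day 4, with 5 doxycycline arrays and 5 control arrays, 1 array per sample. The series title names Omomyc, a dominant-negative MYC mutant that binds MYC and MAX. Such transgenes are often switched on with doxycycline, but the labels describe neither the construct nor whether the line is 1 clone, and no array analysed here is labelled as doxycycline without Omomyc. An effect of doxycycline itself and an effect of Omomyc therefore cannot be told apart. The labels call the samples of a group biological replicas without naming separate cultures, and the spread behind each p-value could be technical. In RNA of whole cultures, fewer expressing cells and less RNA per cell cannot be told apart.

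ABC proteins carry a nucleotide-binding domain that hydrolyses ATP. In most of the family this drives a substrate across a membrane, and in ABCE1 and the ABCF proteins, which have no membrane part, it acts on ribosomes and translation. ABCA and ABCG members mostly move lipids and sterols, ABCB members move lipids, drugs, peptides or mitochondrial products, ABCC members move organic anions and conjugates or gate ion channels, and ABCD members serve peroxisomes and lysosomes. In melanoma the family is studied mainly for drug efflux.

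MYC and Omomyc dimers act at E-boxes, the sequence CACGTG, so the starts of the family's genes were searched for it. RefSeq start windows (GRCh38.p14, 250 bases before to 50 after an annotated start) matched 32 of the 39 members, with 49 windows because some genes have several starts. The E-box, which reads the same on both strands, was present in 7 of these 32 genes (21.9%), against 1727 of 15842 protein-coding genes with such windows (10.9%). Of the 7, 3 were higher with doxycycline (ABCA1, ABCA12 and ABCC10), 3 were lower (ABCB6, ABCB9 and ABCG2) and ABCA9 did not pass the test. Windows around the match are shown for the 6 genes where it lay away from other annotated starts, because they let genes that went opposite ways be compared. Each is written 5′ to 3′ on the gene's own strand with the E-box in capitals.
ABCA1: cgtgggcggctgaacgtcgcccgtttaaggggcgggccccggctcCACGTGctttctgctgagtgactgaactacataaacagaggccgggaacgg
ABCA12: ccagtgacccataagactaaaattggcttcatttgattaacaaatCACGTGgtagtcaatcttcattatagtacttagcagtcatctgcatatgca
ABCC10: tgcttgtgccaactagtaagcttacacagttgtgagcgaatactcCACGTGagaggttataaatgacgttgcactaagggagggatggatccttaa
ABCB6: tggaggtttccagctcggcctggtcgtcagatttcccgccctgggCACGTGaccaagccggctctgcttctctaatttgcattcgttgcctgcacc
ABCB9: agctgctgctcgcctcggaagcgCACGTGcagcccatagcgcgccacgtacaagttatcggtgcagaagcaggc
ABCA9: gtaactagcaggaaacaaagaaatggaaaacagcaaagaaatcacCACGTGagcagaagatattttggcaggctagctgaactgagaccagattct
The ABCA1 stretch is chr9:104928252-104928347 on the minus strand, and its E-box begins at position -147 from the start. The ABCA12 stretch is chr2:215032188-215032283 on the minus strand, before 1 of 2 annotated starts. The ABCC10 stretch is chr6:43427335-43427430 on the plus strand, also before 1 of 2 starts. The stretches of the lower genes are chr2:219219064-219219159 for ABCB6 and chr12:122975291-122975364 for ABCB9, both minus strand. That of ABCB9 lies before 1 of 3 annotated starts and is shorter because its E-box, at -227, is near the window's edge. That of ABCA9 is chr17:69061023-69061118, minus strand. A match of letters describes the sequence and is no evidence of binding in these cells.

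Other searches over both strands gave no match at the amino acid response element TGATGNAAT or at the exact DR4 repeat, AGGTCA and again AGGTCA on the same strand with 4 bases between, in any of the 49 windows. These occurred in 139 (0.877%) and 2 (0.0126%) of the 15842 genes. With strings this rare, no match in 32 genes was likely at the outset, and looser versions were not searched. The GC box GGGCGG was present in 19 of the 32 genes (59.4%) against 64.3% of all genes, and CCAAT in 10 (31.2%) against 42.1%. In the ABCA1 window above, the letters GGGCGG lie upstream of the E-box and do not overlap it.

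The family split in both directions after doxycycline. Of 39 members, 20 changed at an adjusted p under 0.05, 11 higher and 9 lower, which is 51.3% of the family against 38.1% of all 18569 probe sets. The background was 20.9% higher and 17.2% lower. The median log2 fold change was 0.12 for the family and 0.04 for all probe sets, and the median size of change regardless of sign was 0.30 against 0.20. The sterol exporter ABCA1 rose most, 5.18-fold, and the mitochondrial transporter ABCB10 fell most, 3.43-fold. In 15 members the 5 doxycycline arrays and the 5 control arrays did not overlap, and 28.6% of all probe sets had groups that did not overlap. Control array 4 stood far from the other control arrays for 6 of the genes named here, of which ABCC4, ABCC5 and ABCG8 are members. Without it 21 members were called, 13 higher and 8 lower.

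The share of members called differed with signal strength, and whether dim members were unchanged or hidden was not tested. In 12 members the mean over the 10 arrays lay in the lowest 25% of all probe set means, below 2.85 log2 units, and 2 of those 12 passed the test, ABCA12 and ABCG2. Fold changes of such dim probe sets are compressed by background. With the lowest 25% of probe sets left out, 27 members were tested and 19 were called (70.4%), 11 higher and 8 lower, against 50% of the 13927 probe sets tested (27.1% higher and 23% lower). Above the median signal 11 of 14 members were called (78.6%), 7 higher and 4 lower, against 60.2% of 9285 (32.6% higher and 27.5% lower). The share called was larger at higher signal in the family and in the whole table.

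**Figure D1:**
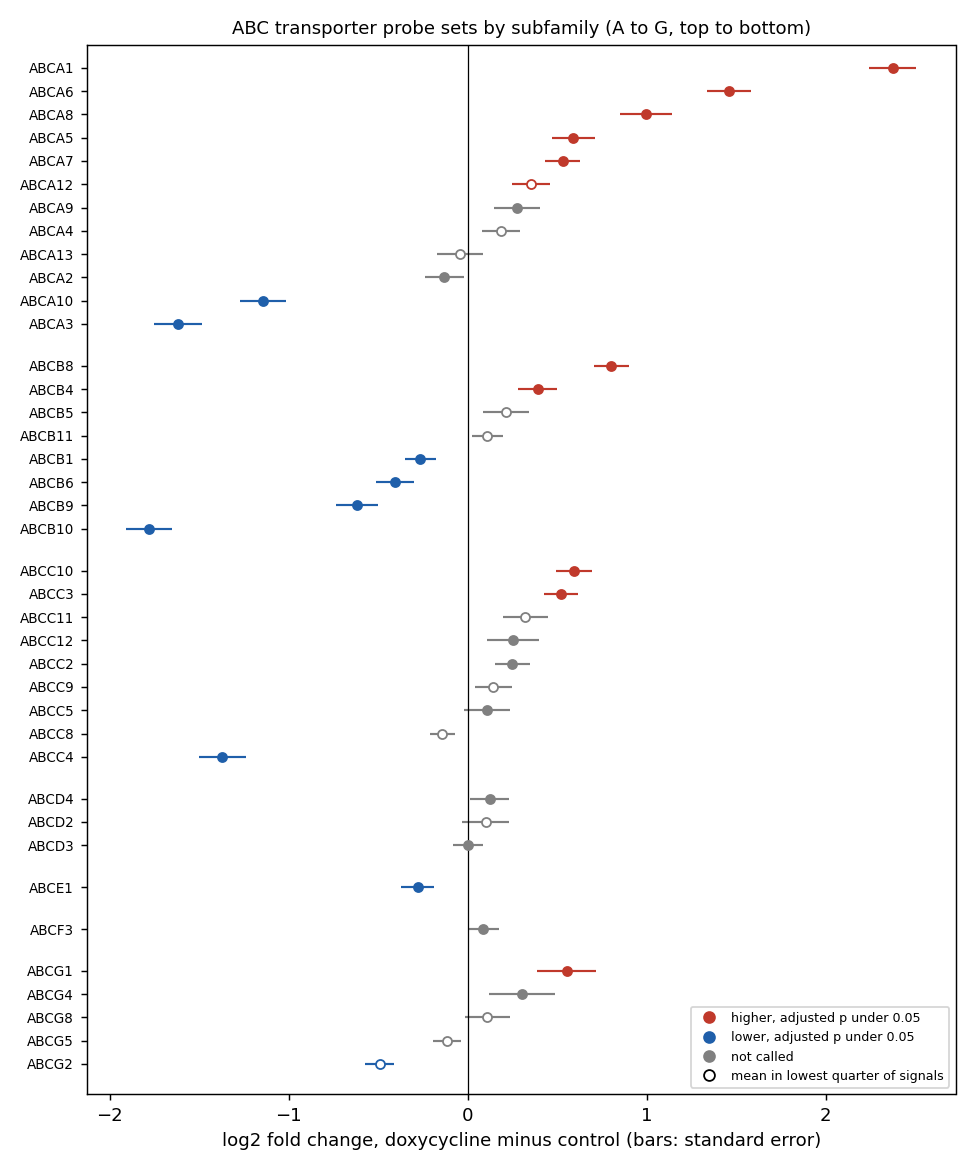
Log2 fold change of doxycycline over control with its standard error for the 39 ABC probe sets, 5 arrays per group, grouped by subfamily from ABCA at the top to ABCG at the bottom. Red and blue points passed at an adjusted p under 0.05, grey points did not, and open points have a mean in the lowest 25% of signals; ABCA1 lies at 2.37 and ABCB10 at -1.78.

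Counts by subfamily were small, and of all probe sets 20.9% were higher and 17.2% lower. ABCA had 6 of 12 higher and 2 lower, with a median log2 fold change of 0.32. ABCB had 2 of 8 higher and 4 lower and a median of -0.08, with 4 positive and 4 negative log2 fold changes. ABCB1, counted among the lower genes, lost its call in some alternatives. ABCC had 2 of 9 higher and 1 lower and a median of 0.25, and ABCG had 1 of 5 higher and 1 lower and a median of 0.11. The single ABCE gene fell. Above the median signal 3 of 4 ABCA, 3 of 3 ABCB and 4 of 4 ABCC genes were called, against 60.2% of all such probe sets. The shares of the 3 subfamilies thus differed little there. By limma none of the 3 ABCD genes and 1 ABCF gene passed, and 0 of these 4 had an unadjusted p under 0.05. These are descriptions of small gene groups whose members are not replicates, and the differences between subfamilies were not tested.

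**Figure D2:**
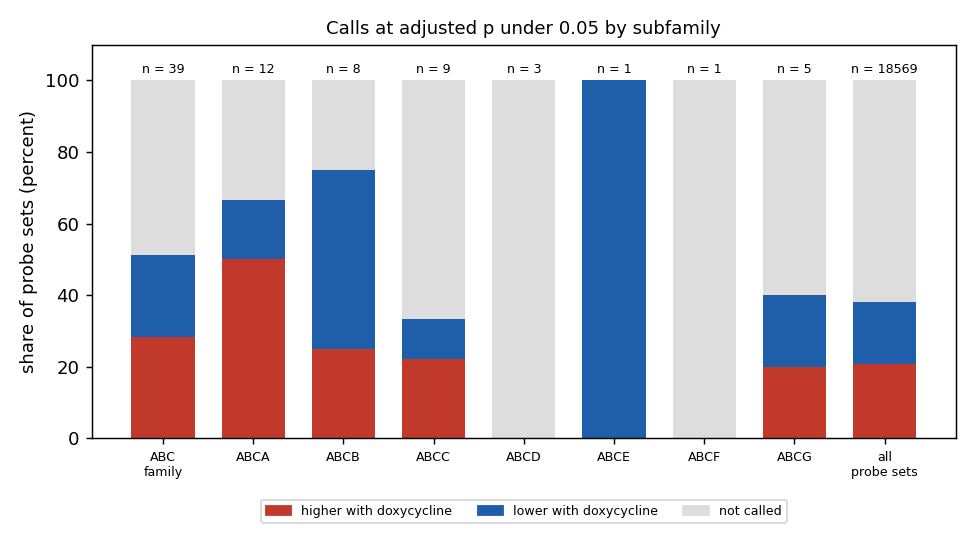
Share of probe sets called higher (red), lower (blue) or not called (grey) with doxycycline at an adjusted p under 0.05, in percent, for the family, each subfamily and all 18569 probe sets. ABCA has 50% higher and ABCB has 50% lower, and the number of probe sets stands above each bar.

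The cholesterol exporters ABCA1 and ABCG1 and the phospholipid transporter ABCA7 rose. ABCA1, which loads cholesterol and phospholipid onto apolipoprotein A-I, read 8.02, 7.57, 8.11, 8.14 and 8.00 log2 units on the doxycycline arrays, against 5.38, 5.50, 5.69, 5.43 and 5.98 on the control arrays. The lowest doxycycline array was above the highest control array by more than the range within either group. The log2 fold change was 2.37 ± 0.13 (SE, n = 5 per group), with an adjusted p of 2.78e-09. ABCG1, which passes sterol on to high-density lipoprotein, read 4.86, 4.88, 4.70, 4.52 and 4.89 with doxycycline, against 4.14, 4.08, 4.45, 3.65 and 4.76 in control. These groups overlapped through control array 5, and ABCG1 rose by 0.55 ± 0.16 at an adjusted p of 0.0148. The phospholipid transporter ABCA7 rose by 0.53 ± 0.10, to 6.14 ± 0.10 with doxycycline, against 5.61 ± 0.19 in control (SD, n = 5 each; adjusted p = 4.68e-04), with no overlap.

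Of the other ABCG genes, ABCG2 passed the test. ABCG4, a sterol transporter of the nervous system, had a log2 fold change of 0.30 ± 0.18 (adjusted p = 0.221; 0.0481 without control array 2), with SDs of 0.28 with doxycycline and 0.43 in control. ABCG5 and ABCG8, which form a heterodimer that exports plant sterols and cholesterol in gut and liver, were in the lowest 25% of signals, with log2 fold changes of -0.12 and 0.11 that did not pass. ABCG2, the breast cancer resistance protein and a drug pump, was also in the lowest 25%, and fell by 0.49 ± 0.08 (adjusted p = 1.91e-04). Its arrays read 2.36, 2.19, 2.27, 2.40 and 2.25 with doxycycline, against 2.78, 2.76, 2.90, 2.62 and 2.85 in control, without overlap. With all its values this low, the size of the ABCG2 change cannot be read as a fold of RNA.

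Genes of the sterol efflux pathway and its LXR regulators moved in both directions. Of 17 listed, 12 were measured, and 6 rose and 2 fell, with a median log2 fold change of 0.11 against 0.04 over all probe sets. Over all probe sets 38.1% were called, and 60.2% of those above the median signal, where 11 of these 12 genes lie with 8 called. Without doxycycline array 1, 3, 4 or 5 or control array 2, 3 or 4, and with array medians subtracted, 1 fell. APOE, an apolipoprotein that accepts exported lipid, rose by 0.82 ± 0.09. LPCAT3, which remodels phospholipids (0.78 ± 0.11), SREBF1, a lipid synthesis regulator (0.69 ± 0.11), and NR1H3, which encodes the sterol receptor LXR-alpha (0.36 ± 0.09), rose too. SCARB1, a lipoprotein receptor that takes up and releases cholesterol, fell by 1.36 ± 0.07. The apolipoprotein gene APOC1 fell too, by 0.38 ± 0.14 (adjusted p = 0.0363), with overlap between the groups.

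The remaining large ABCA changes went both ways. ABCA3, which loads surfactant lipid into lamellar bodies in lung and sits in lysosome-like compartments, read 2.34, 2.46, 2.80, 2.14 and 2.76 with doxycycline, against 4.12, 4.15, 3.80, 4.37 and 4.17 in control. The groups did not overlap, and every doxycycline value was below 2.85, the bound of the lowest 25%. Its log2 fold change was -1.62 ± 0.13 (adjusted p = 1.78e-07), and with the doxycycline values this low its size cannot be read as a fold of RNA. ABCA12, a lipid transporter of skin keratinocytes, rose by 0.35 ± 0.10 (adjusted p = 0.0140), but all of its values lay between 1.87 and 2.51. ABCA2, a lysosomal lipid transporter (-0.13 ± 0.11), the retinal flippase ABCA4 (0.19 ± 0.11) and ABCA13 (-0.04 ± 0.13) did not pass. Without control array 4, ABCA4 passed (adjusted p = 0.0424).

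Neighbouring ABCA genes on chromosome 17 moved in opposite directions. RefSeq places ABCA8, ABCA9, ABCA6, ABCA10 and ABCA5 next to each other in this order, with no other protein-coding gene starting between them. ABCA6 read 5.16, 5.52, 5.53, 5.95 and 5.67 log2 units with doxycycline, against 4.04, 4.14, 4.10, 3.96 and 4.29 in control. Its neighbour ABCA10 read 3.55, 4.15, 3.96, 3.48 and 3.79 with doxycycline, against 5.18, 4.75, 4.85, 4.86 and 5.01 in control. In neither gene did the groups overlap. The log2 fold changes were 1.46 ± 0.12 for ABCA6 (adjusted p = 2.14e-07) and -1.14 ± 0.13 for ABCA10 (adjusted p = 4.10e-06).

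ABCA8, a lipid and drug transporter studied in liver and brain, rose with ABCA6. It read 4.92, 5.24, 5.47, 5.21 and 5.72 with doxycycline, against 4.60, 4.35, 4.29, 3.92 and 4.43 in control, a log2 fold change of 1.00 ± 0.15 (adjusted p = 6.64e-05). ABCA5, a lysosomal and late endosomal member, rose by 0.59 ± 0.12 (adjusted p = 0.00121), with 1 doxycycline array (5.64) below the highest control array (5.68). ABCA9 changed by 0.28 ± 0.13 and did not pass (adjusted p = 0.107). Without doxycycline array 4, ABCA9 passed (0.38 ± 0.11, adjusted p = 0.0149). These genes are close relatives in sequence, and whether their probes cross-hybridise was not tested.

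**Figure D3:**
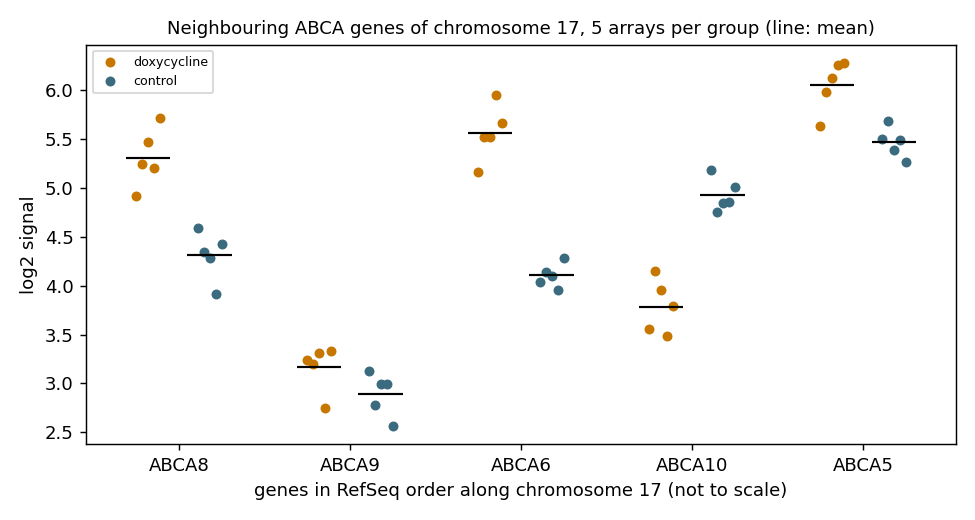
Log2 signal of each array for 5 ABCA genes in their RefSeq order on chromosome 17 (not to scale), doxycycline left of control for each gene, with lines at the means of 5 arrays. ABCA8, ABCA6 and ABCA5 are higher with doxycycline and ABCA10 is lower; levels of different genes come from different probes and are not comparable.

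Mitochondrial ABCB genes were split. ABCB10, an inner membrane transporter needed for haem synthesis in red cell precursors, read 4.47, 3.95, 4.53, 4.70 and 4.07 with doxycycline, against 6.18, 6.05, 6.15, 6.12 and 6.12 in control. The SD was 0.32 over the doxycycline arrays and 0.05 over the control arrays, far below the distance between the groups. The log2 fold change was -1.78 ± 0.13 (adjusted p = 3.31e-08). ABCB8, a mitochondrial member linked to iron export and to a potassium channel, rose by 0.80 ± 0.10 (adjusted p = 1.05e-05). It read 5.50, 5.45, 5.28, 5.27 and 5.03 with doxycycline, against 4.60, 4.46, 4.55, 4.34 and 4.58 in control, without overlap. ABCB6, a porphyrin transporter that also carries the Langereis blood group, fell by 0.41 ± 0.11 (adjusted p = 0.00739), and its groups did not overlap either, although the closest arrays read 4.71 with doxycycline and 4.72 in control.

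Genes of haem and iron-sulfur cluster synthesis were measured for 17 of 22 listed, of which 6 rose and 3 fell, with a median log2 fold change of 0.07. This was 52.9% called, against 38.1% of all probe sets. Above the median signal lie 16 of the 17. With the test limited to such probe sets 8 of these 16 were called, against 60.2% of all of them. The count thus did not exceed the level of bright probe sets. MMS19, which delivers iron-sulfur clusters to DNA enzymes, fell by 0.88 ± 0.09. UROD, an enzyme of haem synthesis, fell by 0.34 ± 0.10. The mitochondrial glycine carrier SLC25A38 (0.48 ± 0.08) and the haem enzyme CPOX (0.39 ± 0.09) rose.

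ABCB9, a lysosomal peptide transporter, fell by 0.62 ± 0.12 (adjusted p = 6.56e-04). It read 4.77, 4.75, 4.73, 5.05 and 4.52 with doxycycline, against 5.11, 5.69, 5.51, 5.27 and 5.33 in control, and the groups did not overlap. Its closest relatives TAP1 and TAP2, ABC genes with other symbols, encode the peptide transporter that supplies MHC class I in the endoplasmic reticulum. TAP1 went the other way and rose by 0.62 ± 0.09 (adjusted p = 6.62e-05), at 6.10, 5.80, 5.64, 5.69 and 5.89 with doxycycline, against 5.12, 5.18, 5.26, 5.22 and 5.24 in control. TAP2 had a log2 fold change of 0.21 ± 0.10 and did not pass (adjusted p = 0.128), but passed without doxycycline array 2 (adjusted p = 0.0302). Of the 11 class I peptide loading genes 7 rose and 1 fell, with a median of 0.34, against 20.9% higher and 17.2% lower of all probe sets. Above the median signal, where 10 of the 11 lie, the shares over all probe sets were 32.6% higher and 27.5% lower. The largest change was that of TAPBPL, a tapasin relative that edits peptides (1.09 ± 0.10).

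The multidrug pump ABCB1 and the lipid flippase ABCB4, neighbours on chromosome 7, moved apart by small amounts. ABCB1, P-glycoprotein, read 3.49, 3.76, 3.63, 3.53 and 3.71 with doxycycline, against 3.73, 4.00, 3.93, 3.88 and 3.88 in control, and the groups overlapped. It fell by 0.26 ± 0.08 (adjusted p = 0.0220), a call lost with a variance prior that follows signal (adjusted p = 0.0837) and without doxycycline array 4 or control array 2 or 3 (adjusted p = 0.0516, 0.0603 and 0.0527). ABCB4, which exports phosphatidylcholine into bile, rose by 0.39 ± 0.11 (adjusted p = 0.00979) to 5.44 ± 0.21 with doxycycline, against 5.05 ± 0.14 in control (SD, n = 5 each). ABCB5, described as a marker of melanoma-initiating cells, lay in the lowest 25% of signals and had a log2 fold change of 0.21 ± 0.13 (adjusted p = 0.223). The bile salt pump ABCB11 was likewise dim, at 0.11 ± 0.09.

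**Figure D4:**
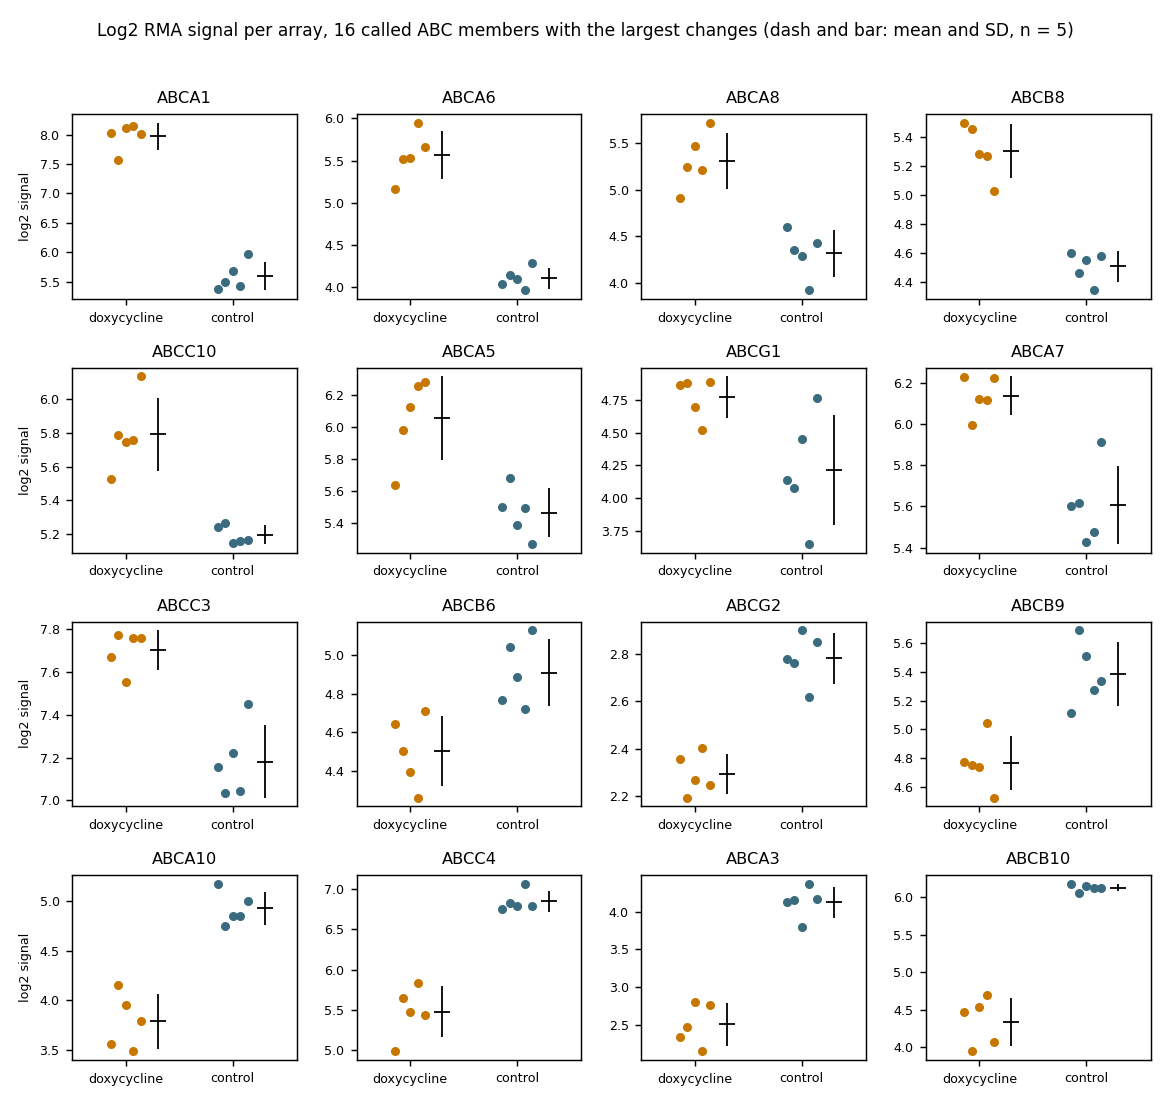
Log2 signal of each array for the 16 called ABC members with the largest changes, doxycycline left of control, with mean and SD (n = 5) beside the points and a separate axis for each gene. From ABCA1 at the top left to ABCB10 at the bottom right the log2 fold change runs between 2.37 and -1.78, and the groups overlap in ABCA5 and ABCG1 only.

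Among the ABCC genes, 1 large fall stood beside small rises. ABCC4, which exports cyclic nucleotides, prostaglandins and nucleoside drugs, read 4.98, 5.65, 5.48, 5.84 and 5.44 with doxycycline, against 6.76, 6.83, 6.79, 7.07 and 6.80 in control. The groups were well apart, with a log2 fold change of -1.37 ± 0.13 (adjusted p = 8.83e-07) or 2.59-fold. ABCC3, an exporter of glucuronide conjugates and bile salts, rose by 0.52 ± 0.09 (adjusted p = 3.69e-04), at 7.67, 7.77, 7.55, 7.76 and 7.76 with doxycycline, against 7.16, 7.03, 7.22, 7.04 and 7.45 in control. ABCC10, a pump for taxanes and other drugs, rose by 0.59 ± 0.10 (adjusted p = 2.34e-04), at 5.53, 5.79, 5.74, 5.76 and 6.14 with doxycycline, against 5.24, 5.27, 5.15, 5.16 and 5.16 in control. Neither ABCC3 nor ABCC10 overlapped between groups.

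The other 6 ABCC genes did not pass. ABCC2, the canalicular conjugate exporter of liver, had a log2 fold change of 0.25 ± 0.10 and just missed the threshold (adjusted p = 0.0545), as did ABCC11, the transporter behind the earwax type (0.32 ± 0.13, adjusted p = 0.0564). Both passed when each array's median was subtracted first (adjusted p = 0.0349 for ABCC2 and 0.0318 for ABCC11), and both with the variance prior that follows signal, so that 5 of 9 ABCC genes were called in either setting. ABCC2 also passed when the lowest 25% or 50% of probe sets were left out (adjusted p = 0.0412 and 0.0247) and without control array 1 or 4 (adjusted p = 0.0224 and 0.0351), and ABCC11 without doxycycline array 1 or control array 5 (adjusted p = 0.00537 and 0.0176). The nucleotide exporter ABCC5 (0.11 ± 0.13) and ABCC12 (0.25 ± 0.15) did not pass. ABCC8 and ABCC9, the sulfonylurea receptors that gate potassium channels, were in the lowest 25% of signals, at -0.14 ± 0.07 and 0.14 ± 0.10. Of their channel partners KCNJ11 rose by 0.25 ± 0.09 (adjusted p = 0.0385), a call lost with the replicate block (adjusted p = 0.0650), with the variance prior that follows signal (adjusted p = 0.103) and without any array other than control array 3 or 5, and KCNJ8 had 0.21 ± 0.14. CFTR, an ABCC gene under another symbol that forms a chloride channel, was in the lowest 25% (0.09 ± 0.10).

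Glutathione, which many ABCC pumps carry as conjugates, was represented by 18 of 19 listed genes, of which 5 rose and 7 fell, with a median of 0.12. The 66.7% called stand against 38.1% of all probe sets. Above the median signal lie 15 of the 18. With the test limited to such probe sets 11 of these 15 were called, against 60.2% of all of them. GCLC, the catalytic subunit of the first enzyme of glutathione synthesis, fell by 2.44 ± 0.13, and its partner GCLM is among the 7. The conjugating enzymes MGST1 (-1.52 ± 0.11) and GSTP1 (-1.03 ± 0.11) fell, while MGST2 rose (0.89 ± 0.11). Regulators of ABC and xenobiotic genes were measured for 10 of 12 listed, and 7 rose and 1 fell, with a median of 0.34, against 20.9% higher and 17.2% lower of all probe sets. Above the median signal, where 9 of the 10 lie, 32.6% of all probe sets were higher and 27.5% lower. The genes that rose included the dioxin receptor partner ARNT (0.64 ± 0.09), the CCAAT-binding subunit NFYA (0.45 ± 0.10) and the antioxidant regulator NFE2L2 (0.38 ± 0.07), and YBX1, an RNA- and DNA-binding protein, fell by 0.62 ± 0.07.

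The ABCD genes showed no detectable change. ABCD3, a peroxisomal transporter for branched and long acyl chains, averaged 8.21 ± 0.14 with doxycycline and 8.21 ± 0.04 in control (SD, n = 5 each), and ABCD4, which works in lysosomal cobalamin export, had a log2 fold change of 0.12 ± 0.11. ABCD2, a peroxisomal transporter of very long fatty acids, was in the lowest 25% of signals (0.10 ± 0.13). Of 16 measured genes of peroxisome import and beta-oxidation out of 22 listed, 3 rose and 0 fell by limma (0 lower also at an unadjusted p under 0.05), with a median of 0.03, which is 18.8% called against 38.1% of all probe sets. With the test limited to probe sets above the median signal, 4 of 14 of these genes were called, against 60.2% of all such probe sets. Without doxycycline array 1 there were 4 higher and 1 lower, and without control array 5 there were 5 higher. The 3 were the thiolase ACAA1 (0.73 ± 0.09), catalase CAT (0.67 ± 0.09) and HSD17B4 (0.27 ± 0.09), whose call was lost with the replicate block (adjusted p = 0.0592) and without doxycycline array 2, 4 or 5 or control array 3 or 4 (adjusted p between 0.0519 and 0.0626). Around ABCD4, 3 of 10 cobalamin genes rose and 2 fell, with a median of 0.02. All 10 lie above the median signal, and with the test limited to such probe sets 6 of 10 were called, near the 60.2% over all of them. The partner of ABCD4 in the lysosomal membrane, LMBRD1, rose by 0.33 ± 0.08, and CD320, the receptor for cobalamin-loaded transcobalamin, fell by 0.93 ± 0.10.

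ABCE1, which splits ribosomes into subunits after translation ends, fell slightly. It read 7.80, 7.79, 8.17, 8.17 and 8.02 with doxycycline, against 8.28, 8.28, 8.24, 8.36 and 8.20 in control, with no overlap, although the highest doxycycline arrays were close to the lowest control array. The log2 fold change was -0.28 ± 0.09 (adjusted p = 0.0288). The call was lost when array medians were subtracted (adjusted p = 0.0522) and without doxycycline array 1 or 2 or control array 1, 2 or 4 (adjusted p between 0.0531 and 0.0775). ABCF3, a soluble member tied to the GCN pathway in yeast, had a log2 fold change of 0.09 ± 0.09 and did not pass. Of 13 measured genes of ribosome recycling and the GCN pathway, 7 fell and 2 rose, with a median of -0.25, against 17.2% lower and 20.9% higher of all probe sets. Above the median signal, where 12 of the 13 lie, the shares over all probe sets were 27.5% lower and 32.6% higher. There 8 of the 12 were called, against 60.2% of all such probe sets. The number that fell was 4 without doxycycline array 2 or control array 2 or 3, with the replicate block and with array medians subtracted. The largest falls were those of the initiation factors EIF3J (-0.59 ± 0.08) and EIF2S2 (-0.57 ± 0.08), while NEMF, which acts on stalled ribosomes, rose (0.54 ± 0.12).

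Related genes were also compared with each other on each array, as the log2 difference between their probe sets, to ask whether they changed by different amounts. Of 14 pairs listed, 8 had both genes measured. The pairs were chosen with earlier results of these data known, which the p-values do not allow for. In exact two-sided permutation tests of 5 against 5 arrays, for which 0.00794 is the smallest possible p, 4 of the 8 pairs passed after Benjamini-Hochberg adjustment over the 8. ABCA1 rose more than ABCG1, by 1.82 ± 0.19 log2 units (SE; adjusted p = 0.0212, exact permutation). ABCC4 changed by -1.48 ± 0.21 relative to ABCC5, and ABCA2 by 1.49 ± 0.23 relative to ABCA3, each with an adjusted p of 0.0212 by the exact permutation test. In these 3 pairs no doxycycline array overlapped a control array. The log2 difference of ABCC4 minus ABCC5 was 2.83 on control array 4, against 1.99 to 2.16 on the other control arrays. With 1 array left out in turn, the change of ABCC4 relative to ABCC5 ranged from -1.59 to -1.33 (exact adjusted p up to 0.0423). The size of the difference between ABCA2 and ABCA3 rests on ABCA3 values in the lowest 25% of signals with doxycycline and cannot be read as a fold of RNA.

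The neighbours ABCB1 and ABCB4 differed by -0.66 ± 0.15 (adjusted p = 0.0317, exact permutation), with overlap. This call was lost when any 1 array was left out other than doxycycline array 2 or control array 4 (exact adjusted p up to 0.0635). With 5 against 4 arrays the smallest possible exact p is 0.0159, which by itself makes a call harder to reach. ABCC8 and ABCC9 (-0.28 ± 0.13, adjusted p = 0.0762) and the partners ABCG5 and ABCG8 (-0.23 ± 0.12, adjusted p = 0.127) did not pass in the exact permutation tests. The first passed without doxycycline array 2 and the second without control array 4, each at an exact adjusted p of 0.0254. ABCG1 and ABCG4 (0.25 ± 0.34) and the neighbours ABCC11 and ABCC12 (0.07 ± 0.26) had errors as large as or larger than their differences.

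**Figure D5:**
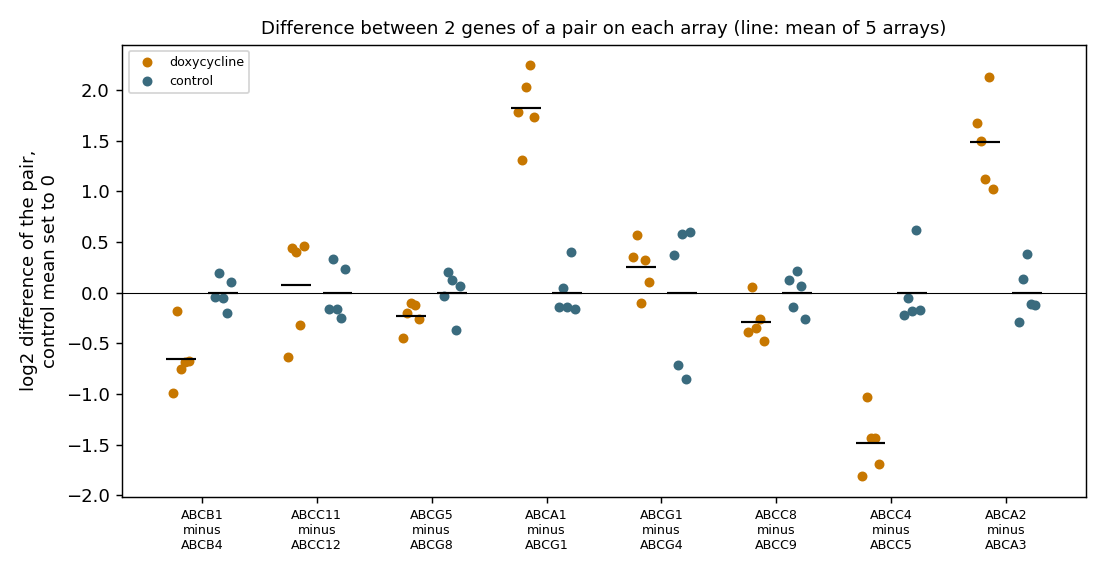
Log2 difference between the 2 genes of a pair on each array, shifted so that the control mean of each pair is 0, doxycycline left of control, with lines at the means of 5 arrays. The doxycycline arrays stand clear of control for ABCA1 minus ABCG1, ABCC4 minus ABCC5 and ABCA2 minus ABCA3.

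As a check of the cell line, 5 of 9 measured melanoma markers were above the lowest 25% of signals, among them SOX10 and MITF, while the pigment genes PMEL, MLANA, TYR and TYRP1 were in it. The summed log2 signal of these 9 was 48.1 to 49.2 with doxycycline and 47.0 to 48.2 in control, and 4 rose (MITF, TYR, S100B and S100A1) and 1 fell (CSPG4). All 5 keratinocyte markers were in the lowest 25%, and 1 rose (summed signal 12.1 to 13.2 with doxycycline and 11.9 to 13.3 in control). For the counts in this paragraph, 20.9% of all probe sets were higher and 17.2% lower. Fibroblast markers rose in 4 of 5 cases (24.6 to 25.3 and 20.8 to 22.0), with none in the lowest 25%. These were LUM (1.52 ± 0.10), PDGFRB (1.16 ± 0.10), DCN (0.40 ± 0.12) and COL1A1 (0.32 ± 0.11). Hepatocyte markers rose in 2 of 5 (20.7 to 22.6 and 17.8 to 19.5), SERPINA1 (2.12 ± 0.09) and TTR (0.78 ± 0.18). Of the 5 endothelial markers KDR rose (1.18 ± 0.12), and PECAM1, CDH5 and TEK were in the lowest 25%. Their summed signal was 16.4 to 18.2 with doxycycline and 14.8 to 16.2 in control. Of the 5 leukocyte markers CD14 rose (0.51 ± 0.09), and PTPRC, CD3E and ITGAM were in the lowest 25% (19.2 to 20.3 and 18.3 to 19.4). KDR and CD68, and also PDGFRB and SERPINA1, lay above the median signal, and VWF and CD68 were not called. The part of the markers in the ABC results was not tested. Arrays correlated at 0.990 to 0.996 within doxycycline, 0.993 to 0.997 within control and 0.970 to 0.976 between groups. RMA sets each array to 1 distribution before the probe set summary, which hides any shift in overall RNA content. After it the array medians were 5.02 to 5.05 with doxycycline and 5.04 to 5.10 in control.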

How the data were processed

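The deposited values are log2 expression values per probe set and array, made by the authors with RMA (background correction, quantile normalization, probe set summary), per the submitters' processing notes, with version and filters not given in the sources used here. They ran from 1.14 to 12.9. Symbols came from the platform annotation, which gave 17511 probe sets 1 symbol and left 1058 unnamed here, and all 39 member symbols were current in RefSeq. Doxycycline was compared with control by lmFit and eBayes of limma 3.58.1 (R 4.3.3), with group as the only term, over all 18569 probe sets and with Benjamini-Hochberg adjustment at 0.05, two-sided. The median standard error was 0.103. Pairs were tested exactly with SciPy 1.17.1. No set test was made. The rule for the members used no measured value, but the rule, the lists and the pairs were chosen with earlier results of these data known. All members were named, with per-array values mainly for the 16 largest called changes, and up to 4 called genes per list. NR1H3, APOC1, GCLM, LMBRD1, KCNJ8 and the marker genes lie outside that rule and were named with their values known. The model was tested on simulated data. Same-numbered arrays of the groups did not deviate together (correlations of -0.437 to -0.00746), so the numbers were not used as pairs. The number of arrays limits the precision.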

Additional observations from a re-analysis of the deposited data

Results flagged for a closer look

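In some groups of 5 arrays 1 array stood far from the other 4, by a gap larger than Dixon's critical share of the group's range. This held for 9 of 148 groups tested over the members and the list genes within the naming rule above, without the marker genes. Chance flags about 1 in 20. With doxycycline, ABCA1 read 7.57 on array 2 (others 8.00 to 8.14), ABCA9 read 2.75 on array 4 (others 3.20 to 3.33) and ABCC11 read 2.09 on array 1 (others 2.55 to 2.65). The other 6 were all on control array 4. There ABCC4 read 7.07 (others 6.76 to 6.83), ABCC5 4.24 (4.67 to 4.77), ABCG8 2.70 (2.11 to 2.25), TAP2 6.29 (6.57 to 6.67), CAT 7.96 (7.62 to 7.71) and MMS19 6.91 (7.15 to 7.23). Without control array 4 the family had 21 called members, and 19 to 21 over all omissions of 1 array.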

How the results depend on the processing

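Of the 20 called members, 18 kept their direction and their call in every alternative in which they were tested, and ABCB1 and ABCE1 did not. Called members numbered 11 of 14 tested above the median signal, where ABCA had 3 of 4, ABCB 3 of 3 and ABCC 4 of 4, and this filter leaves fewer genes to call. Without the lowest 25% of signals ABCG had 1. ABCC had 5 called members both with array medians subtracted and with the trended, robust variance prior, and ABCE had 0 with array medians subtracted and 0 to 1 when arrays were left out in turn (0 without doxycycline array 1 or 2 or control array 1, 2 or 4). Over the same omissions the pair differences ranged from -0.77 to -0.57 for ABCB1 and ABCB4, -0.027 to 0.25 for ABCC11 and ABCC12, -0.32 to -0.17 for ABCG5 and ABCG8, and -0.37 to -0.23 for ABCC8 and ABCC9. Values near 0 changed sign: ABCA13 ranged from -0.15 to 0.031, ABCD2 from -0.0055 to 0.19 and ABCD3 from -0.031 to 0.061, and ABCD3 was 0.034 with array medians subtracted. The cause was not tested. Fitted with the replicate number as a block, 20 members were called, and no member's call changed; over the partner lists 56 of 112 genes were called against 64. Above the median signal 61 of 99 of these genes were called, near the 60.2% of all such probe sets. Dim probe sets limit what can be seen for 12 members.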
